A study of Mus musculus with 6 samples.

Results

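Cells sense oxygen through the hypoxia-inducible factors (HIFs), and 10 genes of this pathway were examined in CFPAC-1 cells, a human pancreatic adenocarcinoma (PAAD) line, with and without knockdown of the keratin gene KRT7. The genes were taken by a fixed list of Ensembl identifiers, and all 10 were found among the 30543 genes of the count table. They comprise the HIF alpha subunits HIF1A (ENSG00000100644) and EPAS1 (ENSG00000116016), the oxygen sensing and degradation genes VHL (ENSG00000134086), EGLN1 (ENSG00000135766) and EGLN3 (ENSG00000129521), and the HIF targets CA9 (ENSG00000107159), NDRG1 (ENSG00000104419), ADM (ENSG00000148926), BNIP3 (ENSG00000176171) and ANGPTL4 (ENSG00000167772). The symbols come from that list, since the table itself holds identifiers only.

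A HIF is a transcription factor made of an alpha subunit and a constant partner. In the presence of oxygen, prolyl hydroxylases of the EGLN family modify the alpha subunit, the VHL ubiquitin ligase then marks it for destruction, and little of it reaches the nucleus. When oxygen is short, the alpha subunit escapes and switches on genes for pH control, glucose use, vessel growth and lipid handling. The alpha subunits are thus regulated mainly as proteins, which were not measured here, while the mRNA of their targets is commonly read as a sign of HIF activity. The study examined KRT7 for its part in angiogenesis, a process in which HIF targets are known to take part.

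The control cells were transfected with a control siRNA (si-Control, 3 libraries) and the others with siRNA directed at KRT7 (si-KRT7, 3 libraries). The study lists more than 1 siRNA sequence against KRT7, and the library titles do not say which was used in which library. The labels give 1 cell line for all libraries, no oxygen tension and no time after transfection. The study describes the set of assays that holds the RNA-seq as independent experiments, whereas the labels do not say whether these libraries came from separate cultures. If they did not, the p-values measure only a spread that may be technical. The labels name the mouse as organism, whereas all identifiers are of the human Ensembl form. Polyadenylated RNA was sequenced, and the deposited values are reads counted per gene.

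The libraries held between 28208896 and 36315802 counts, and edgeR's TMM factors for composition lay between 0.976 and 1.03. Replicate 2 of si-KRT7 stood apart: its log2 levels over 15736 genes had Pearson correlations of 0.982 with si-KRT7 replicates 1 and 3, which had 0.992 with each other, as a description across genes. With each of the 3 si-Control libraries its correlation was 0.986, so by this measure it was closer to the control libraries than to the others of its own label. Replicates 1 and 3 of si-KRT7 had correlations of 0.983 to 0.986 with the si-Control libraries. By this measure replicate 2 thus lay about as far from si-Control as they did. Each gene's fold change is therefore also given without si-KRT7 replicate 2. That library was singled out because it differed in these same data. Without it, the variation between replicates that edgeR estimated over all genes fell from 0.130 to 0.0485. The p-values of that fit are thus likely too small and are given as a description only. KRT7 itself and markers of CFPAC-1 cells were not looked up, because no table used here pairs human identifiers with symbols, so the depth of the knockdown was not examined.

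Levels are given as CPM, read counts scaled to a common library size after TMM normalization. They serve to compare libraries for the same gene, and not genes with each other, because gene lengths were not used. All 10 genes were among the 15736 that passed edgeR's filter on low counts, and these were fitted together.

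None of the 10 genes was called between si-KRT7 and si-Control cells at an adjusted p under 0.05 in edgeR's quasi-likelihood test, where 325 genes or 2.07% of all genes tested were called. With an absolute log2 fold change over 1 as a further limit, 0.292% of all genes were called and again 0 of the 10. Without si-KRT7 replicate 2, 2.20% of all genes and still 0 of the 10 passed both limits. At an unadjusted p under 0.05, 2 of the 10 passed, EGLN3 and NDRG1, both lower in si-KRT7 cells, beside 18.6% of all genes. The median log2 fold change was -0.06 over the 10 genes and 0.01 over all genes tested, and 7 of the 10 had a negative value beside 48.3% of all genes. Without that library the medians were -0.06 and -0.01, and 6 of the 10 had a negative value beside 51.0% of all genes. In bulk RNA, a lower level in every cell and a loss in some of the cells cannot be told apart.

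The count depended on the tool. With the DESeq2 Wald test 2 of the 10 genes had an adjusted p under 0.05, EGLN3 and NDRG1, where 8.08% of the 14209 genes with an adjusted p were called. Limma-voom called 0 of the 10 beside 1.96% of all genes at an adjusted p under 0.05, and 2 of the 10 beside 18.8% of all genes at an unadjusted p under 0.05. Limma-voom with sample quality weights called 3, VHL higher and EGLN3 and NDRG1 lower, with 43.6% of all genes called.

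**Figure D1:**
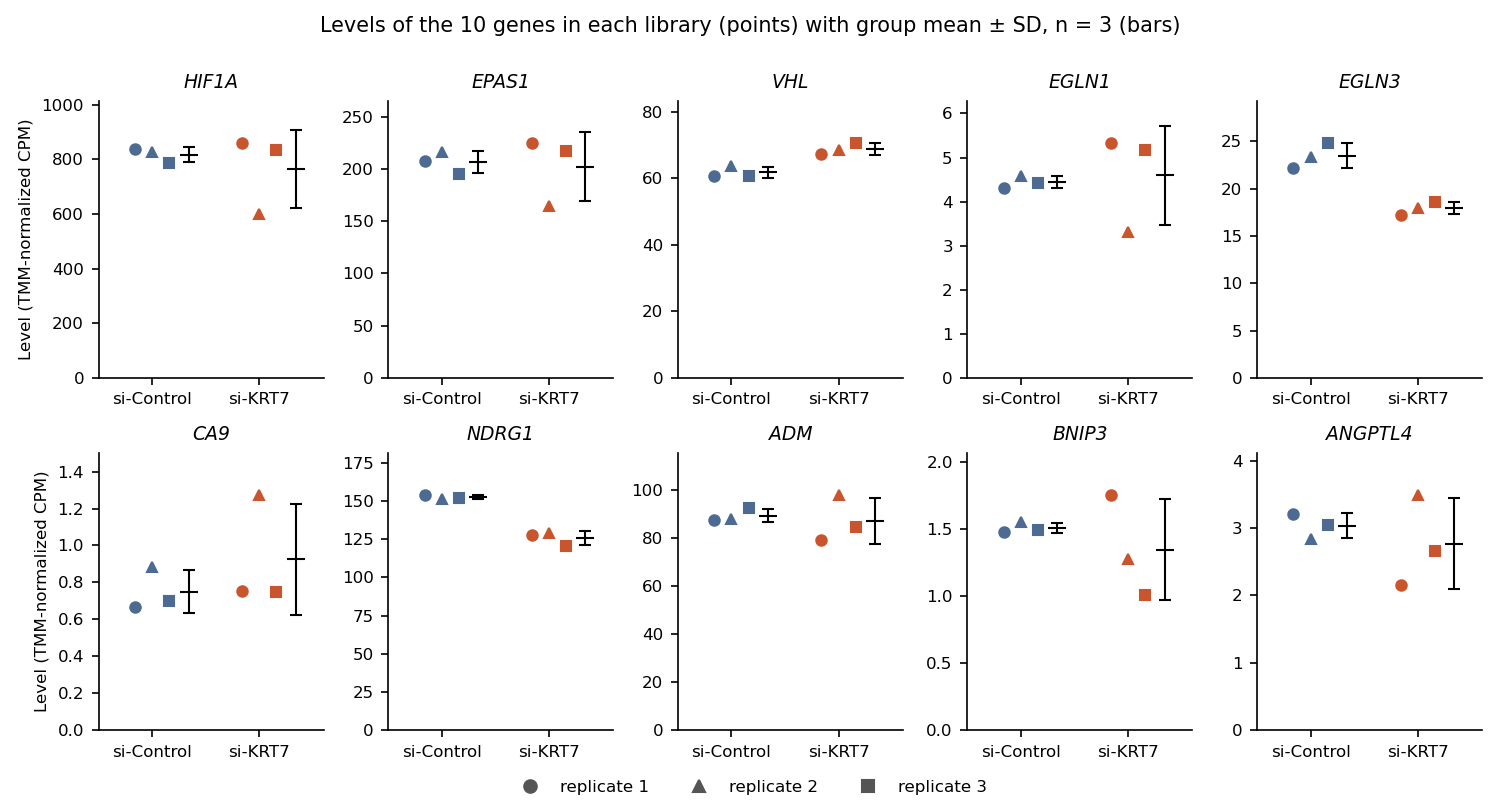
Levels of the 10 genes in TMM-normalized CPM (vertical axes start at 0) in the 3 si-Control and 3 si-KRT7 libraries, with points for libraries and bars for the group mean ± SD (n = 3). EGLN3 and NDRG1 lie lower and VHL higher in every si-KRT7 library, whereas si-KRT7 replicate 2 (triangle) alone lies low for HIF1A, EPAS1 and EGLN1.

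HIF1A encodes the broadly expressed alpha subunit of HIF-1. Its level was 837, 829 and 786 CPM in si-Control replicates 1, 2 and 3, and 861, 601 and 834 CPM in those of si-KRT7. Replicate 1 of si-KRT7 thus lay above and replicate 3 within the si-Control range, and replicate 2 lay below every other library, at 73.5% of the si-Control mean. Mean levels were 817 ± 27.3 CPM (SD, n = 3) with si-Control and 765 ± 143 CPM (SD, n = 3) with si-KRT7. The log2 fold change of HIF1A was -0.10 with a standard error (SE) of 0.13 and a 95% interval from -0.39 to 0.20 (adjusted p = 0.744 in edgeR). Without si-KRT7 replicate 2 it was 0.05, from -0.02 to 0.12 (adjusted p = 0.242), so the sign of the HIF1A difference rested on that library.

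EPAS1 encodes HIF-2 alpha, the related subunit expressed in fewer tissues. It stood at 208, 216 and 195 CPM in the si-Control libraries and at 225, 164 and 217 CPM in the si-KRT7 libraries. As for HIF1A, si-KRT7 replicate 2 was the lowest of the 6 libraries, at 79.5% of the si-Control mean, while replicates 1 and 3 were the highest. For EPAS1 the log2 fold change was -0.03 (SE 0.12, interval -0.31 to 0.25, adjusted p = 0.924 in edgeR). It became 0.10 without si-KRT7 replicate 2, from 0.01 to 0.18, with an adjusted p of 0.0524 just above the limit.

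The ratio of HIF1A to EPAS1 reads within a library does not depend on the normalization. It was 4.03, 3.83 and 4.02 in si-Control replicates 1, 2 and 3, and 3.83, 3.66 and 3.84 in those of si-KRT7. In si-KRT7 replicate 2 both genes were low together, and their ratio moved much less than either level. The groups overlapped in this ratio, and the log2 difference was -0.07, or -0.05 without si-KRT7 replicate 2 (with all libraries, two-sided exact permutation p = 0.2, adjusted p = 0.3 over the 2 ratios of related genes compared, where 3 libraries against 3 allow no p below 0.1).

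VHL, the substrate receptor that recognizes hydroxylated HIF alpha, was 60.7, 63.6 and 60.7 CPM in the si-Control libraries. In si-KRT7 replicates 1, 2 and 3 it was 67.2, 68.4 and 70.6 CPM. The groups did not overlap, and replicate 2 lay between the other si-KRT7 libraries. Mean levels were 61.7 ± 1.65 CPM (SD, n = 3) and 68.7 ± 1.70 CPM (SD, n = 3). VHL had a log2 fold change of 0.16 (SE 0.08, interval -0.02 to 0.33, adjusted p = 0.324 in edgeR), a difference of 11.4%, and the exact permutation p was 0.1. Without si-KRT7 replicate 2 the size stayed at 0.16, from 0.05 to 0.26, and the adjusted p was 0.0169.

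EGLN1 encodes PHD2, known as the main prolyl hydroxylase acting on HIF-1 alpha under ordinary oxygen. Its levels were low, with 91 to 198 reads per library. They were 4.32, 4.59 and 4.42 CPM in the si-Control libraries and 5.33, 3.31 and 5.16 CPM in the si-KRT7 libraries. Replicates 1 and 3 of si-KRT7 lay above and replicate 2 below all si-Control libraries, as for EPAS1. The exact Poisson 95% interval of EGLN1 in si-KRT7 replicate 2 ran from 2.66 to 4.06 CPM and in replicate 1 from 4.61 to 6.13 CPM, so these intervals did not overlap. Against the si-Control libraries, the interval of every si-KRT7 library overlapped all 3. These intervals cover counting error only. With all libraries the log2 fold change of EGLN1 was 0.06 (SE 0.19, interval -0.39 to 0.50, adjusted p = 0.909 in edgeR), and 0.24 without replicate 2, from -0.08 to 0.56 (adjusted p = 0.233).

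EGLN3 encodes PHD3, a hydroxylase that is itself a HIF target and so part of a feedback loop. It was 22.2, 23.4 and 24.8 CPM in si-Control replicates 1, 2 and 3, and 17.3, 18.0 and 18.6 CPM in those of si-KRT7. Every si-KRT7 library lay below every si-Control library, at 73.5%, 76.5% and 79.1% of the si-Control mean, and replicate 2 lay between the others. Mean levels were 23.5 ± 1.30 CPM (SD, n = 3) with si-Control and 17.9 ± 0.655 CPM (SD, n = 3) with si-KRT7. EGLN3 had the largest absolute log2 fold change of the 10 genes in edgeR, -0.39 with a standard error of 0.09 and an interval from -0.60 to -0.18. Its unadjusted p was 0.00279, rank 566 of the 15736 genes tested, which gave an adjusted p of 0.0775. The exact permutation test gave p = 0.1, the smallest that this design allows. In the DESeq2 Wald test the adjusted p was 0.0146, and in edgeR without si-KRT7 replicate 2 it was 3.96e-04 with the same log2 fold change of -0.39. Other fits did not call EGLN3, with an adjusted p of 0.0818 in limma-voom and 0.344 in edgeR without si-Control replicate 3.

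The ratio of EGLN1 to EGLN3 reads was 0.194, 0.196 and 0.178 in the si-Control libraries. In si-KRT7 replicates 1 and 3 it was 0.309 and 0.278, above all si-Control libraries, whereas replicate 2 had 0.184, within their range. The mean log2 difference was 0.41 (exact permutation p = 0.3, adjusted p = 0.3 over the 2 ratios), and 0.63 without replicate 2. The 2 ratios were chosen after the levels were seen.

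**Figure D2:**
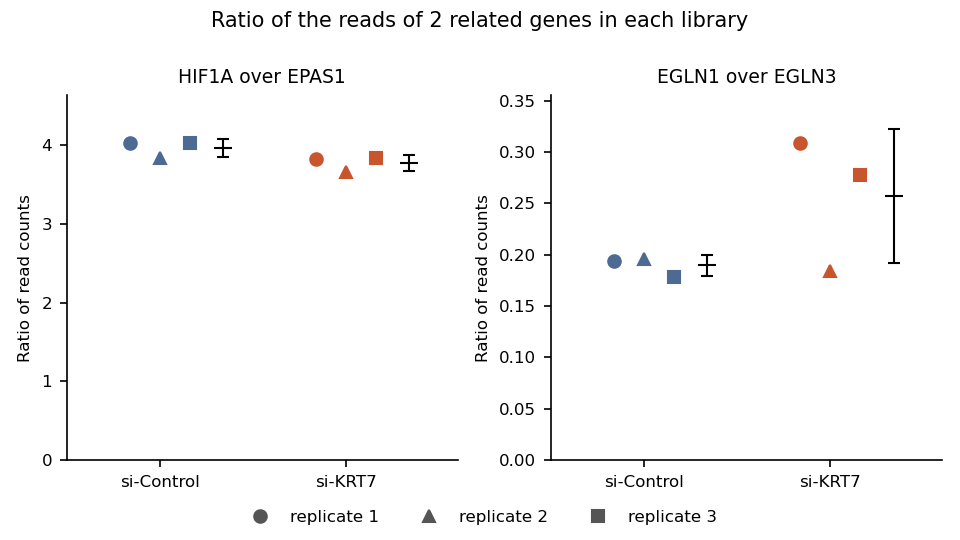
Ratio of read counts within each library (vertical axes start at 0) for HIF1A over EPAS1 and EGLN1 over EGLN3 in si-Control and si-KRT7 cells, with points for libraries and bars for the mean ± SD (n = 3). HIF1A over EPAS1 stays between 3.66 and 4.03 in all 6 libraries, and EGLN1 over EGLN3 is above the si-Control range in si-KRT7 replicates 1 and 3 only.

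Among the 5 target genes, NDRG1 was the one whose groups did not overlap. NDRG1 encodes a stress-responsive cytoplasmic protein that is strongly induced by hypoxia and known as a metastasis suppressor in several tumours. Its level was 154, 152 and 152 CPM in si-Control replicates 1, 2 and 3, and 128, 129 and 121 CPM in those of si-KRT7. These si-KRT7 levels were 83.6%, 84.6% and 79.0% of the mean with si-Control, with replicate 2 near replicate 1. Group means were 153 ± 1.21 CPM (SD, n = 3) and 126 ± 4.50 CPM (SD, n = 3). NDRG1 had a log2 fold change of -0.28 (SE 0.07, interval -0.44 to -0.12), a percent change of -17.6. The unadjusted p of 0.00369 ranked 665 among all genes tested in edgeR, and the adjusted p was 0.0873. The exact permutation p was 0.1. DESeq2 gave NDRG1 an adjusted p of 0.0205, and edgeR without si-KRT7 replicate 2 gave 9.41e-07 at a log2 fold change of -0.30, from -0.38 to -0.22. Limma-voom gave 0.0880 and edgeR without si-Control replicate 3 gave 0.350, so these fits did not call it.

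ADM encodes adrenomedullin, a secreted peptide that widens vessels and acts on endothelial cells. Its level was 87.5, 87.8 and 92.5 CPM in the si-Control libraries and 79.2, 97.8 and 84.6 CPM in the si-KRT7 libraries. Replicates 1 and 3 lay below and replicate 2 above all si-Control libraries. ADM had a log2 fold change of -0.03 (SE 0.10, interval -0.25 to 0.19, adjusted p = 0.886 in edgeR). Without replicate 2 it was -0.13, from -0.23 to -0.03, with an adjusted p of 0.0320.

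ANGPTL4 encodes a secreted inhibitor of lipoprotein lipase that also acts on vessels, and CA9 a membrane carbonic anhydrase that is among the best known HIF-1 markers. ANGPTL4 had 80 to 111 reads per library, at 3.22, 2.85 and 3.05 CPM in the si-Control libraries and 2.15, 3.49 and 2.66 CPM in the si-KRT7 libraries. As for ADM, si-KRT7 replicate 2 was the highest of the 6 libraries and replicates 1 and 3 the lowest. The exact Poisson 95% interval of ANGPTL4 ran from 1.71 to 2.68 CPM in si-KRT7 replicate 1. In si-KRT7 replicate 2 it ran from 2.83 to 4.26 CPM, so these intervals did not overlap. Against the si-Control libraries, the interval of every si-KRT7 library overlapped all 3. The log2 fold change of ANGPTL4 was -0.14 (SE 0.21, interval -0.62 to 0.34, adjusted p = 0.765 in edgeR), and -0.34 without replicate 2, from -0.78 to 0.09 (adjusted p = 0.203).

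CA9 was barely detected, with 22 to 35 reads per library. It stood at 0.667, 0.884 and 0.699 CPM in the si-Control libraries and at 0.754, 1.27 and 0.747 CPM in the si-KRT7 libraries. Replicate 2 of si-KRT7 was the highest, yet its exact Poisson 95% interval of 0.886 to 1.77 CPM overlapped that of si-Control replicate 2, 0.605 to 1.25 CPM, and those of the other si-Control libraries. For CA9 the log2 fold change was 0.29 (SE 0.33, interval -0.47 to 1.04, adjusted p = 0.694 in edgeR) and -0.01 without replicate 2, from -0.85 to 0.84.

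BNIP3, a mitochondrial protein of the BCL2 family that promotes mitophagy, was also thinly covered, with 31 to 65 reads per library. It was 1.48, 1.55 and 1.49 CPM in the si-Control libraries and 1.75, 1.27 and 1.01 CPM in the si-KRT7 libraries. Here the si-KRT7 libraries were spread on both sides of the si-Control range, with replicate 1 the highest and replicate 3 the lowest of the 6. Their exact Poisson 95% intervals all overlapped those of the 3 si-Control libraries. For BNIP3 the log2 fold change was -0.16 (SE 0.26, interval -0.75 to 0.44, adjusted p = 0.794 in edgeR), and -0.12 without replicate 2, from -0.74 to 0.50. BNIP3 is known to have processed pseudogenes, and how shared reads were counted is not given in the sources used here.

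**Figure D3:**
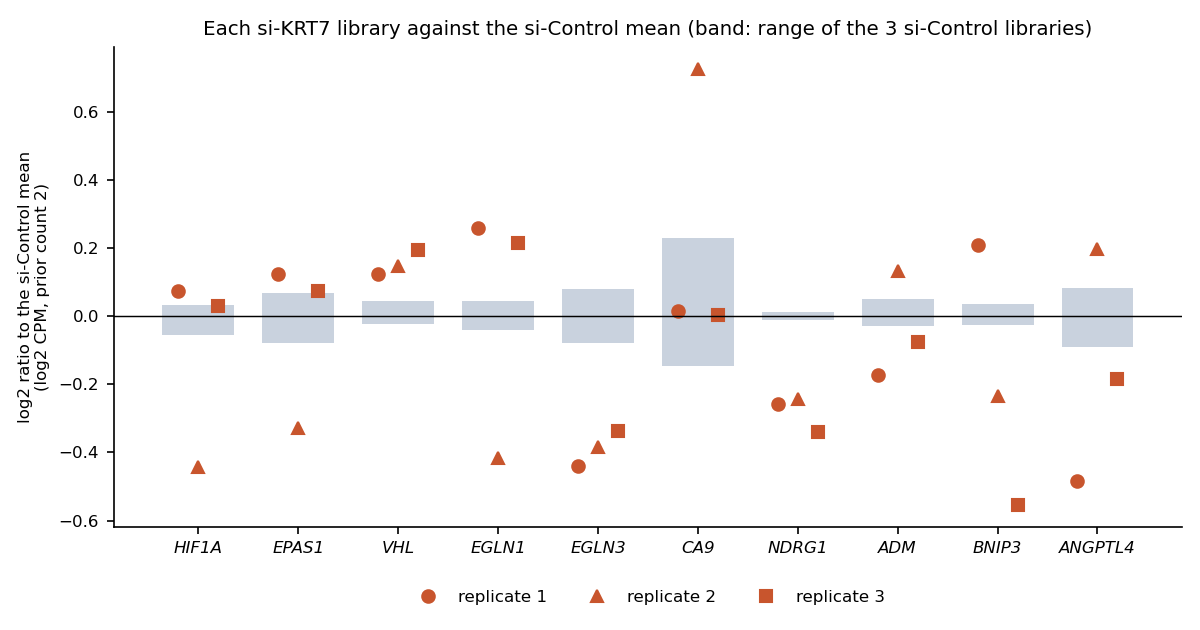
Difference of each si-KRT7 library from the si-Control mean on the log2 scale (vertical axis, log2 CPM with a prior count of 2) for the 10 genes, with the range of the 3 si-Control libraries as a band. All 3 si-KRT7 libraries lie below the band for EGLN3 and NDRG1 and above it for VHL, and replicate 2 lies on the other side of 0 from replicates 1 and 3 for 5 genes.

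Replicate 2 of si-KRT7 was the lowest of the 6 libraries for HIF1A, EPAS1 and EGLN1, and the highest for CA9, ADM and ANGPTL4. These are 3 of the 10 genes each way, beside 26.4% of all genes tested where it was lowest and 27.6% where it was highest. For 5 of the 10 genes it lay on the other side of the si-Control mean from replicates 1 and 3, as did 41.3% of all genes. These shares were near those of all genes. Between the fits with and without it the log2 fold change moved most for CA9, from 0.29 to -0.01, followed by ANGPTL4, EGLN1, HIF1A and EPAS1, and least for VHL and EGLN3. What set it apart was not tested.

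The groups did not overlap in 3 of the 10 genes, VHL, EGLN3 and NDRG1, beside 24.4% of all genes tested. Without si-KRT7 replicate 2, edgeR called 4 of the 10 genes at an adjusted p under 0.05, VHL higher and EGLN3, NDRG1 and ADM lower, where 42.9% of all genes were called. The share of the 10 genes was thus near the share of all genes in either count.

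The intervals limit how large a difference these data allow. With all 6 libraries, 9 of the 10 genes had a 95% interval inside a log2 fold change of -1 to 1, and CA9 was the exception with an upper bound of 1.04. The share of all genes tested with such an interval was not computed, so this count does not set the 10 genes apart. The intervals were narrowest for NDRG1 and VHL, and widest for the thinly covered CA9 and BNIP3. Within the si-KRT7 group the SD of log2 CPM was a median of 3.72 times that of the si-Control group over the 10 genes, and 2.19 times over all genes tested. Each SD rests on 3 libraries, and the ratio ran from 0.662 for EGLN3 to 11.5 for the thinly covered BNIP3. Whether the 10 genes differ from all genes in this ratio was not tested.

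**Figure D4:**
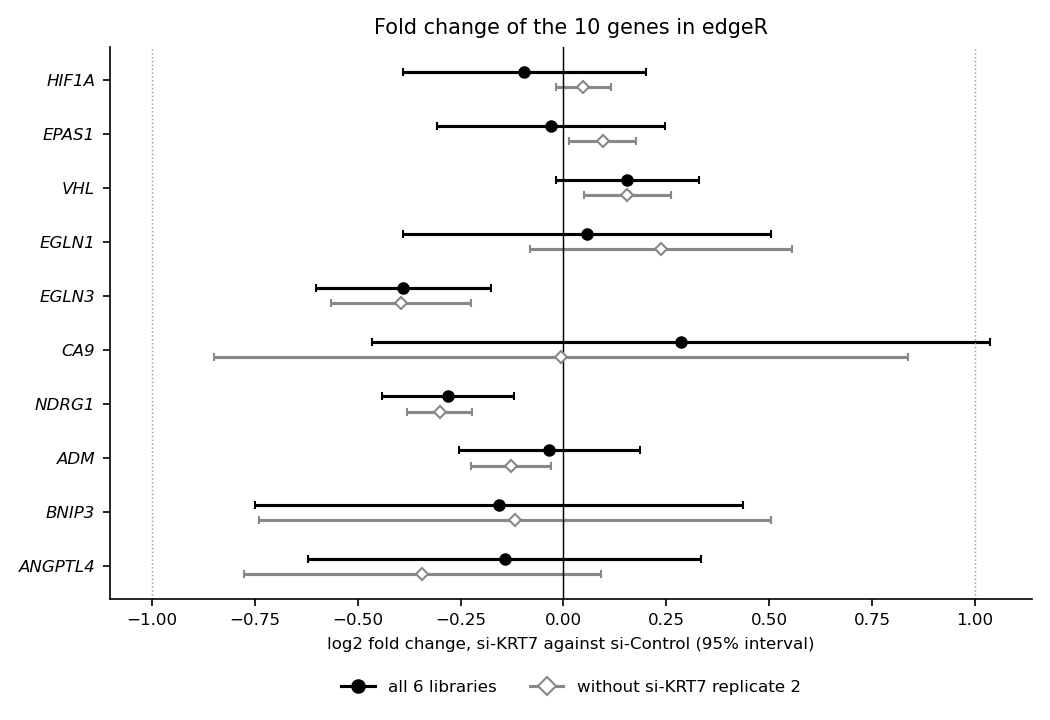
Log2 fold change of the 10 genes from edgeR (horizontal axis, positive where si-KRT7 is higher than si-Control) with approximate 95% intervals, for all 6 libraries (filled circles) and without si-KRT7 replicate 2 (open diamonds). The intervals of EGLN3 and NDRG1 lie below 0 in both fits, and that of CA9 reaches 1.04.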

How the data were processed

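RNA-seq of CFPAC-1 cells was analysed in 3 si-Control and 3 si-KRT7 libraries. The deposited values are raw counts, whole numbers of reads that the authors assigned to each gene, with no scaling. The submitters' processing notes name STAR 2.7.11b and a mouse build, whereas the identifiers are human. The build behind these counts, the annotation, the counting tool and its use of strand are not given in the sources used here, so antisense reads cannot be told apart. Column names were matched to libraries by group and replicate number.

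Differential expression was tested with edgeR 4.0.16 in R 4.3.3 (filterByExpr, TMM, glmQLFit and glmQLFTest), with Benjamini-Hochberg adjustment over the 15736 of 30543 genes kept. The standard error is the log2 fold change divided by the square root of F and is approximate, as is its 95% interval. Alternatives used DESeq2 1.42.0 and limma 3.58.1, where 1527 genes without an adjusted p in DESeq2 were left out. The scripts were tested on simulated counts. The 10 genes, the named-gene rule (all 10, by role) and the lists were chosen with earlier results of these data known. A list of other hypoxia genes, cell type markers, gene positions and sequences were not analysed here, because the reference tables used match 0 of the human identifiers. No pair of libraries was a repeat, with a mean chi-square per gene of at least 3.70.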

Additional observations from a re-analysis of the deposited data

How the results depend on the processing

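Of 15 alternatives, 3 moved the number of the 10 hypoxia genes called from 0: DESeq2 Wald (2), limma-voom with sample quality weights (3) and the fit without si-KRT7 replicate 2 (4); leaving out each library in turn gave 0 to 4. Over all genes, 325 calls became 1347 without a filter on low counts, 1148 with DESeq2, 6858 with sample quality weights and 76 with the replicate block. Without si-Control replicates 1, 2 and 3 there were 6, 6 and 10 calls, and without si-KRT7 replicates 1, 2 and 3 there were 87, 6944 and 36. The cause was not tested. The replicate block changed no call among the 10 genes. Deviations from the group mean in same-numbered libraries had correlations of 0.0520, -0.0798 and -0.0728. Only si-Control replicate 1 correlated most with the si-KRT7 library of its own number. With 3 libraries per group and si-KRT7 replicate 2 far from the others, these values cannot show whether libraries were paired.

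EGLN3, NDRG1 and VHL kept their direction in all 15 alternatives, with log2 fold changes of -0.43 to -0.35, -0.30 to -0.25 and 0.13 to 0.18. Their groups did not overlap, as for 24.4% of all genes tested, so leaving out a single library could hardly reverse them. The other alternatives reused the same libraries, so the kept direction is no independent support. EGLN3, NDRG1 and VHL were called in only 3, 3 and 2 of the 15 alternatives. In edgeR without si-Control replicate 3 their adjusted p was 0.344, 0.350 and 0.664. With sample quality weights HIF1A (0.0284) and EPAS1 (0.0731) changed sign. Leaving out each library, signs also changed for HIF1A (-0.190 to 0.0487), EPAS1 (-0.116 to 0.0953), EGLN1 (-0.0660 to 0.237), CA9 (-0.00504 to 0.422), ADM (-0.128 to 0.0288), BNIP3 (-0.407 to 0.0129) and ANGPTL4 (-0.343 to 0.0133), none of which was called with all libraries. The 40 CPM levels recomputed with other scalings stayed within 1 SD. CA9 and BNIP3 had the fewest reads and the widest intervals, and for BNIP3 the SD of log2 CPM in si-KRT7 was also 11.5 times that in si-Control. That ratio rests on si-Control libraries of 51, 56 and 47 reads that lay close together, with an SD of 0.0332. The counting intervals of BNIP3 overlapped between all si-KRT7 and si-Control libraries. That overlap does not measure the spread within si-KRT7, and whether this spread exceeded counting error was not tested.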
